A study of Mus musculus with 2 samples.

Results

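Clock output transcription factors are genes that the circadian clock drives and that pass its rhythm on to other genes. They were chosen by name, 8 of the 43346 Ensembl genes in the tables: Dbp, Tef, Hlf, Nfil3, Bhlhe40, Bhlhe41, Ciart and Rora. Their RNA was measured by polyA RNA-seq in the liver of 1 female C57BL/6J mouse aged 10 weeks, with no treatment or genetic change named in the labels. The same animal's liver gave 2 technical libraries, library 2, performed in May 2015, and library 1, for which no date of performance is given. There is therefore 1 group and 1 animal, every SD is technical, and the hour of collection is not in the labels, so no position in the daily cycle can be given to any level.

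In the clock, CLOCK and BMAL1 (the product of Arntl) activate genes through E-boxes, and the PER, CRY and REV-ERB proteins repress in turn. DBP, TEF and HLF are the PAR bZIP factors, which activate genes through D-boxes, and NFIL3 (also called E4BP4) represses through the same sites. BHLHE40 and BHLHE41 (DEC1 and DEC2) bind E-boxes and repress, CIART (also called CHRONO) represses CLOCK and BMAL1 activity, and RORA activates through ROR elements, which REV-ERB proteins also bind. In the liver the PAR bZIP factors are known for their part in the daily rhythm of drug-metabolising enzymes. On mm10 the bZIP genes span Dbp on chromosome 7 (45705088 to 45710203, plus strand), Tef on chromosome 15 (81802421 to 81826863, plus strand), Hlf on chromosome 11 (90336536 to 90390895, minus strand), Nfil3 on chromosome 13 (52967209 to 52981073, minus strand). The others span Bhlhe40 on chromosome 6 (108660629 to 108666925, plus strand), Bhlhe41 on chromosome 6 (145858243 to 145865558, minus strand), Ciart on chromosome 3 (95878503 to 95882251, minus strand), Rora on chromosome 9 (68653786 to 69388246, plus strand).

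E-boxes lay before the RefSeq starts of 3 of the 7 members that matched the RefSeq promoter set, in 4 of their 8 windows. Each window was the 250 bases before a start on GRCm38.p6. The letters searched on both strands were CACGTG (E-box), CACGTT (E-prime box), TTATGTAA or TTACGTAA (D-box), TAGGTCA or TGGGTCA (core of the ROR element) and TGACGTCA (cAMP response element). Bhlhe40 is named only. The sequences shown are windows with a match that lie, in whole or in the part shown, before every annotated GENCODE M21 exon of the gene that reaches into the window; the capitals mark the match. They come from chr3:95882252-95882478 (minus strand), chr6:145865559-145865670 (minus strand), chr15:81811164-81811413 (plus strand) and chr11:90390918-90391167 (minus strand).
Ciart: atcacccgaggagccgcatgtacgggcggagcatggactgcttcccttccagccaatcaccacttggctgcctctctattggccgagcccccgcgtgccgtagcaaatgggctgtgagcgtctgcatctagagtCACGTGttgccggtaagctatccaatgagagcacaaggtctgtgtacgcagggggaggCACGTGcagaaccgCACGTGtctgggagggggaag
Bhlhe41: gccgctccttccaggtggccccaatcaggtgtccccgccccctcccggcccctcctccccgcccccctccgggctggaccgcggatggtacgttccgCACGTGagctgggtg
Tef, start 2: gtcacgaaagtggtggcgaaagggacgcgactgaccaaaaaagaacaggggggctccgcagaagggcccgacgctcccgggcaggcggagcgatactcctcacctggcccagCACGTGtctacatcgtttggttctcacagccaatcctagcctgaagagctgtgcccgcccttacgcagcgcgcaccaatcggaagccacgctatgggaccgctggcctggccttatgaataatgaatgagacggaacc
Hlf: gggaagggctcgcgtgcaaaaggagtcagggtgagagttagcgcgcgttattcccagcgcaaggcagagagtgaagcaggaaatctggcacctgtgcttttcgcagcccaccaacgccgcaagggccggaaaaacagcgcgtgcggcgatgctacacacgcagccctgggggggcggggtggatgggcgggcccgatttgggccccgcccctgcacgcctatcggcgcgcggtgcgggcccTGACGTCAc

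The Ciart window held 3 E-boxes, which began 116, 58 and 44 bases before the start. Among all 32851 RefSeq windows of that length 6.02% held an E-box and 0.0609% (20 windows) held 3 or more. The members' windows had from 60.4% GC (Tef start 2) to 81.6% (Nfil3), against a median of 52.4% over all windows. The shares over all windows given here are not matched for GC content. Tef had an E-box before each of its RefSeq starts, which are 8741 bases apart: it began 127 bases before start 1 and 138 bases before start 2. The start 1 window begins inside an annotated M21 exon of Tef. That E-box therefore lies past an annotated start of the gene and not before it. No M21 exon of Tef reaches into the start 2 window, but that window too lies inside the gene. Its E-box is past the annotated starts of Tef-202 (81802421) and Tef-206 (81811046). In Bhlhe41 the E-box began 153 bases before the start. Hlf had a cAMP response element beginning 9 bases before its start, a motif found in 1.55% of windows. Nfil3 had a ROR element core beginning 12 bases before its start, against 5.38% of windows. The last 34 bases of the Nfil3 window lie past its annotated M21 start, and this match is among them. No searched motif was in the Dbp or Rora window, and no D-box (0.931% of all windows) or E-prime box (3.85%) was in any of the 8 windows. In the Dbp window only 91 of the 250 bases lie before its annotated M21 start. No matches overlapped. A match is a run of letters and not a measured binding site.

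**Figure D1:**
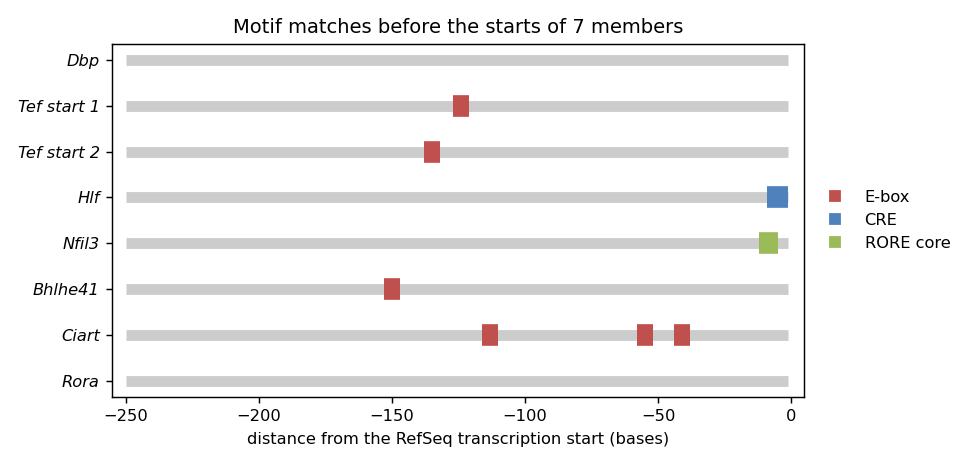
Motif matches in the 250 bases before the RefSeq start of 7 members, with the distance from the start in bases on the horizontal axis and 1 row for each start. Grey bars are the windows searched and coloured blocks the matches; Ciart carries 3 E-boxes, and Dbp and Rora carry no match.

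Levels are in TPM (transcript abundance scaled to a fixed total), a measure per length. The difference between the libraries followed GC content (below), so gaps between genes of unlike GC content can depend on the library. The members ran from 38.62 TPM down to 0.01 TPM in library 2 and from 12.73 TPM down to 0.03 TPM in library 1. At 1 TPM or more, 7 of 8 were detected in library 2, 5 in library 1 and 5 in both (Tef, Hlf, Nfil3, Bhlhe40 and Rora). Of 21461 nuclear protein-coding genes, 49.8% were detected in library 2, 40.1% in library 1 and 39.4% in both. The members together held 0.0156% of nuclear protein-coding TPM in library 2 and 0.0135% in library 1. In a piece of whole liver, fewer cells of a type and less RNA per cell cannot be told apart.

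Library totals and composition touch every value here. The summed estimated counts were 19525500 in library 2 and 23309905 in library 1, the mitochondrial share of TPM was 14.9% and 40.7%, and the nuclear protein-coding share was 73.7% and 37.6%, in that library order. All 8 hepatocyte markers were detected in both libraries, with a summed level of 63798 TPM in library 2 and 28988 TPM in library 1. Most of that was Alb, with 49848 TPM in library 2 and 22690 TPM in library 1. Erythroid markers summed to 2063 TPM in library 2 and 138 TPM in library 1, and muscle markers, the lowest sum in both, to 0.64 TPM and 0.25 TPM. The 6 Kupffer cell markers summed to 165 TPM in library 2 and 68.8 TPM in library 1. Stellate cell markers alone had the higher sum in library 1, with 159 TPM in library 2 and 170 TPM in library 1. Within a list, single markers did not all follow the sum. The 5 neuron markers summed to 5.47 TPM in library 2 and 5.27 TPM in library 1. Nearly all of that was Syt1, with 5.08 TPM and 5.17 TPM, while Nefl and Stmn2 were at 0 counts in both. The part of these markers in the members' levels was not tested.

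Tef and Hlf were the abundant PAR bZIP genes, and Dbp was the scarce one in both libraries. Tef read 24.06 TPM in library 2 and 8.81 TPM in library 1 (mean 16.4 ± 10.8, SD, n = 2 libraries), on 1177 and 554 counts. Hlf read 15.61 TPM in library 2 and 12.73 TPM in library 1 (14.2 ± 2.04), on 985 and 1415 counts. Dbp read 3.80 TPM in library 2 and 0.88 TPM in library 1 (2.34 ± 2.07), on 72 and 21 counts. The order within the family differed: Tef led in library 2, and Hlf led in library 1. On the log2(TPM + 0.1) scale Tef was above Hlf by 0.62 in library 2 and below it in library 1, where the difference was -0.53. Tef exceeded Dbp by 2.63 in library 2 and 3.18 in library 1, and Hlf exceeded Dbp by 2.01 and 3.71, on that scale.

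The 3 PAR bZIP genes summed to 43.47 TPM in library 2 and 22.42 TPM in library 1. Dbp made up 8.7% of that sum in library 2 and 3.9% in library 1, Tef 55.3% and 39.3%, and Hlf 35.9% and 56.8%. Their sum was 1.92 times the level of Nfil3, the repressor of the same sites, in library 2 and 4.47 times in library 1. Nfil3 itself read 22.60 TPM in library 2 and 5.02 TPM in library 1 (13.8 ± 12.4), on 641 and 211 counts. Nfil3 was therefore close to Tef in library 2, with Tef higher by 0.09 on the log2(TPM + 0.1) scale, and lower than Tef by 0.80 in library 1. It stood above Dbp by 2.54 in library 2 and 2.39 in library 1.

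The DEC genes were far apart. Bhlhe40 had the highest mean of the 8, with 38.62 TPM in library 2 and 11.09 TPM in library 1 (24.9 ± 19.5), on 1643 and 718 counts. Bhlhe41 was near 0, with 0.01 TPM from 1 count in library 2 and 0.03 TPM from 4 counts in library 1. The gap between them was 8.46 on the log2(TPM + 0.1) scale in library 2 and 6.43 in library 1. Bhlhe41 lay under the 0.1 that is added, so the size of this gap depends on that value. Ciart was low as well, with 1.41 TPM from 13 counts in library 2 and 0.30 TPM from 4 counts in library 1 (0.855 ± 0.785). Rora read 8.98 TPM in library 2 and 11.93 TPM in library 1 (10.5 ± 2.09), on 1347 and 2829 counts, and was the member with the most counts in library 1.

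**Figure D2:**
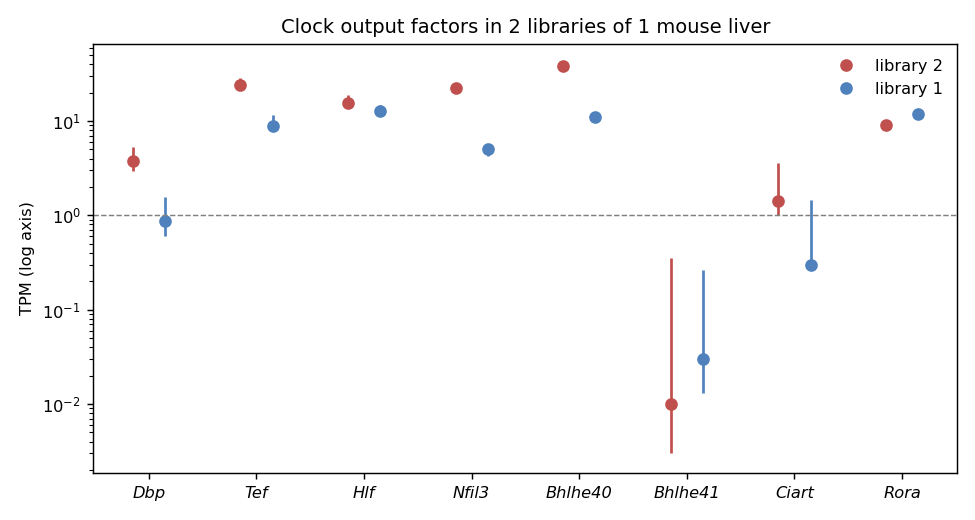
Level of each member in TPM on a log axis, with library 2 left of library 1; points are the deposited values, vertical lines the deposited interval of the TPM (its level is not given in the sources used here) and the dashed line 1 TPM. Dbp and Ciart lie above the line in library 2 and below it in library 1, and Bhlhe41 lies far below it in both.

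By mean level the order was Bhlhe40, Tef, Hlf, Nfil3, Rora, Dbp, Ciart and Bhlhe41. The ranges over the 2 libraries overlapped between every pair of neighbours in this order except Rora and Dbp, and Ciart and Bhlhe41. In library 1 the order was Hlf, Rora, Bhlhe40, Tef, Nfil3, Dbp, Ciart and Bhlhe41, so the lowest 3 kept their places. Among the 15303 nuclear protein-coding genes with a count in either library, Bhlhe40 stood at percentile 86.8 in library 2 and 79.4 in library 1. Rora stood at percentile 63.4 in library 2 and 80.3 in library 1, and Dbp at 47.5 and 42.3.

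Of 44 other clock, rhythmic, C/EBP and HES or HEY genes, the nearest to each member was taken by distance over the 2 libraries on the log2(TPM + 0.1) scale. Tef lay nearest to Csnk1d, a kinase of PER proteins, with 23.73 TPM in library 2 and 7.99 TPM in library 1 (distance 0.14). Dbp lay nearest to Cdkn1a, a cell cycle inhibitor gene, with 4.26 and 1.02 TPM in that library order (0.25). Rora lay nearest to Clock, with 10.52 TPM in library 2 and 13.67 TPM in library 1 (0.30). The other pairs were Hlf with Cebpg (0.51), Nfil3 with Csnk1d (0.66), Bhlhe40 with Csnk1d (0.84) and Ciart with Cebpd (0.43). Bhlhe41 lay nearest to Rorb and Helt (0.40), both listed at 0. With 2 libraries, closeness of level is all that this distance holds.

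The transcript tables listed 39 transcripts of the 8 genes, of which 27 had a level above 0 in at least 1 library, 20 in both and 12 in neither. By share of TPM the leading transcript was the same in both libraries for 6 members and differed for Tef and Ciart. Among the 6, Nfil3 has a single listed transcript, and Bhlhe41 rests on 1 count in library 2 and 4 in library 1. By share of estimated counts the Dbp leader differed, with Dbp-201 in library 2 (42.6%) and ENSMUST00000123587 in library 1 (55.0%). Shares below are the authors' deposited percent of the gene's TPM.

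Tef transcripts from its annotated starts took different shares in the libraries. Tef-202, which begins near start 1, held 43.26% in library 2 and 11.92% in library 1. Tef-201, which begins at start 2, held 27.37% in library 2 and 43.38% in library 1. The deposited TPM intervals of Tef-202 were 7.90 to 11.62 in library 2 and 0.27 to 2.30 in library 1, and did not overlap. Those of Tef-201, 4.38 to 8.29 in library 2 and 2.26 to 4.56 in library 1, did overlap. These are intervals of TPM, which also carries the difference in the level of Tef as a whole. They are not intervals of the share. Summed over transcripts that begin within 1 kb of each RefSeq start, start 1 held 54.53% in library 2 and 35.54% in library 1, and start 2 held 33.62% and 45.68%. Part of the start 1 sum comes from transcripts annotated as non-coding: the retained-intron transcript Tef-203 near start 1 held 9.47% in library 2 and 21.69% in library 1.

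Hlf was led by the protein-coding Hlf-201, with 57.22% in library 2 and 81.59% in library 1. The rest was nearly all Hlf-203, annotated as a processed transcript, with 41.41% in library 2 and 18.41% in library 1. Rora was almost entirely Rora-201, with 89.14% in library 2 and 96.86% in library 1. Rora-202, whose annotated start lies 635896 bases further along the gene, held 4.98% in library 2 and 0.47% in library 1. The leading Bhlhe40 transcript held 93.79% in library 2 and 96.59% in library 1, and Nfil3 has a single annotated transcript.

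Dbp had 5 listed transcripts, 4 of them not in GENCODE M21. The protein-coding Dbp-201 held 32.69% in library 2 and 7.40% in library 1, which is 30.69 and 2.39 estimated counts. ENSMUST00000155439 held 36.52% in library 2 and 55.46% in library 1, and ENSMUST00000123587 held 30.79% and 37.14%. The Ciart leader was Ciart-206 in library 2, with 33.84% there and 18.56% in library 1, and Ciart-205 in library 1, with 25.65% in library 2 and 69.48% in library 1. Those shares divide 13 counts in library 2 and 4 in library 1.

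**Figure D3:**
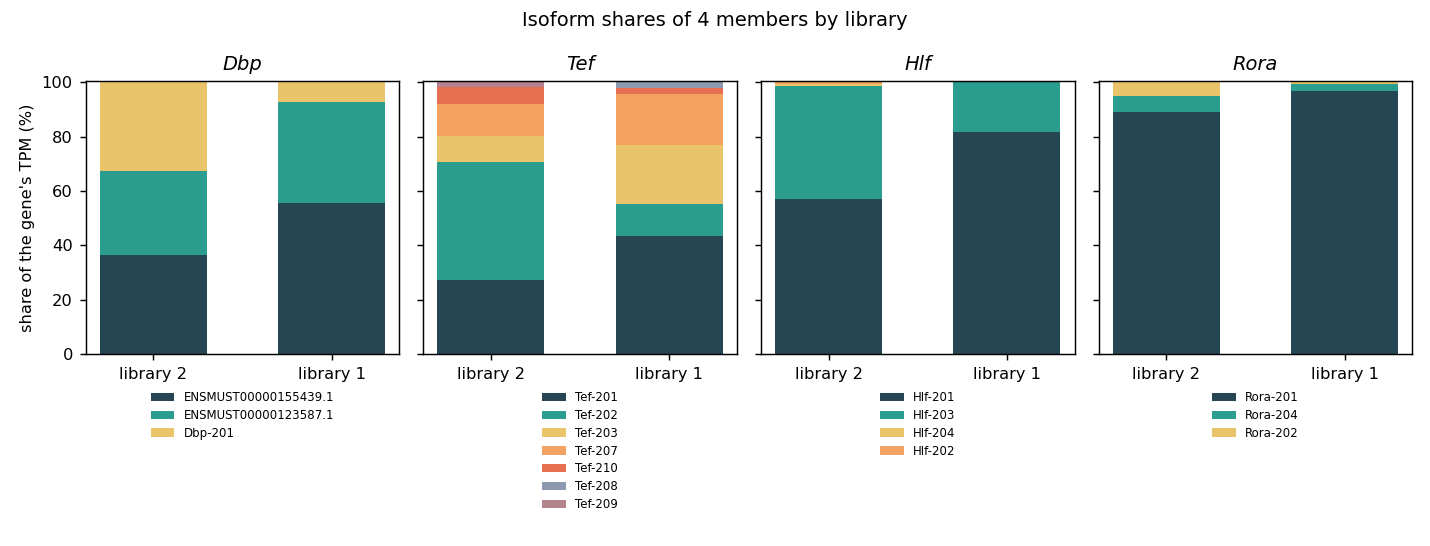
Share of each transcript in its gene's TPM, in percent, for Dbp, Tef, Hlf and Rora, with library 2 left of library 1 in each panel and 1 colour for each transcript above 0. Tef-202 takes 43.26% of Tef in library 2 and 11.92% in library 1, and Rora-201 takes most of Rora in both.

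The libraries were then compared on counts, with library 2 over library 1, because the members' levels differed between them. Estimated counts were rounded and scaled by edgeR's trimmed mean of M values (TMM), and a gene was tested with at least 20 counts in all. It was called where its log2 fold was at least 1 in size and the exact binomial 95% interval lay off 0. With 1 library on each side no p-value was computed; the interval covers counting error only and compares these libraries, not conditions.

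Dbp and Nfil3 were higher in library 2, Rora was lower, and Tef, Hlf and Bhlhe40 were not called, with Ciart (17 counts) and Bhlhe41 (5 counts) under the count minimum. Of the 6 members tested, 2 were called higher, where 32.7% of all 12728 tested genes were, and 1 was called lower, where 23.8% of all were. Those counts are near the shares over all genes and say nothing particular of the members. Their median log2 fold was 0.82, against 0.04 over all tested genes. Their median GC content (weighted by TPM) was 51.3%, against 49.8% over all tested genes. After either GC curve described below, the folds of Dbp, Tef and Nfil3 turned from above 0 to below it, so the median is not read as a shift of the members.

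Nfil3 had a log2 fold of 1.28 (1.05 to 1.51). Dbp had 1.43 (0.74 to 2.23), the widest interval of the 6. Rora had -1.39 (-1.49 to -1.30). Under total-count scaling Rora was -0.81 and no longer called, while Dbp at 2.01 and Nfil3 at 1.86 remained past the threshold. Under TMM Bhlhe40 had 0.87 (0.74 to 1.00), Tef 0.76 (0.62 to 0.91) and Hlf -0.85 (-0.96 to -0.73). As a ratio of deposited TPM, Hlf was 0.29, on the other side of 0. Tef and Bhlhe40 were called higher under total-count scaling (1.34 and 1.45), as were 41.9% of all tested genes. They were also called higher as a ratio of deposited TPM (1.44 and 1.79), as were 45.9% of all.

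The fold followed the GC content of the transcripts across the genome, and several members sat near that trend. Spearman's rho between log2 fold and GC content was 0.869 over 12128 tested genes with the plain mean GC of a gene's transcripts, and 0.908 with GC weighted by TPM. These points are genes of the same 2 libraries, so the values are descriptions. The weighted form was added after the plain one had been seen, and because its weights are TPM values of these libraries it shares data with the fold. The 2 forms differ for members whose minor transcripts are richer in GC: Rora had 49.7% by plain mean and 41.5% weighted, Hlf 49.1% and 45.5%, and Bhlhe40 52.9% and 49.7%.

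The Rora value depended on the GC form. Its fold minus a smooth curve of fold on GC was -1.34 with the plain mean, where it was called lower, and -0.01 with the weighted GC, where it was not called. Its main transcript, Rora-201, has 40.9% GC. Hlf was -0.64 from the curve with the plain mean and -0.04 with the weighted GC. Bhlhe40 was -0.12 with the plain mean and 0.79 with the weighted GC, which are on opposite sides of 0.

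For Dbp, Nfil3 and Tef both forms put the fold below the curve. Dbp was -2.46 from it with the plain mean and -2.75 with the weighted GC, and was called lower under both. Genes within 1 point of its 61.6% GC had a median log2 fold of 3.88 with the plain mean and 4.24 with the weighted GC, against 1.43 for Dbp. This GC value rests on Dbp-201 alone, the 1 transcript with a GC value, which held the shares given above. Nfil3 was -0.30 from the curve with the plain mean and -0.42 with the weighted GC, and Tef -0.39 and -0.27, none of them called.

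Dbp also overlaps Sphk2, a sphingosine kinase gene on the opposite strand (chromosome 7, 45709467 to 45718002). Sphk2 read 24.98 TPM from 1048 counts in library 2 and 0.60 TPM from 43 counts in library 1. Whether counting used strand is not given in the sources used here, so reads of the shared stretch may belong to either gene. Ciart overlaps the antisense gene C920021L13Rik, with 1.96 TPM in library 2 and 0.04 TPM in library 1. The part of these neighbours in the Dbp and Ciart values was not tested.

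**Figure D4:**
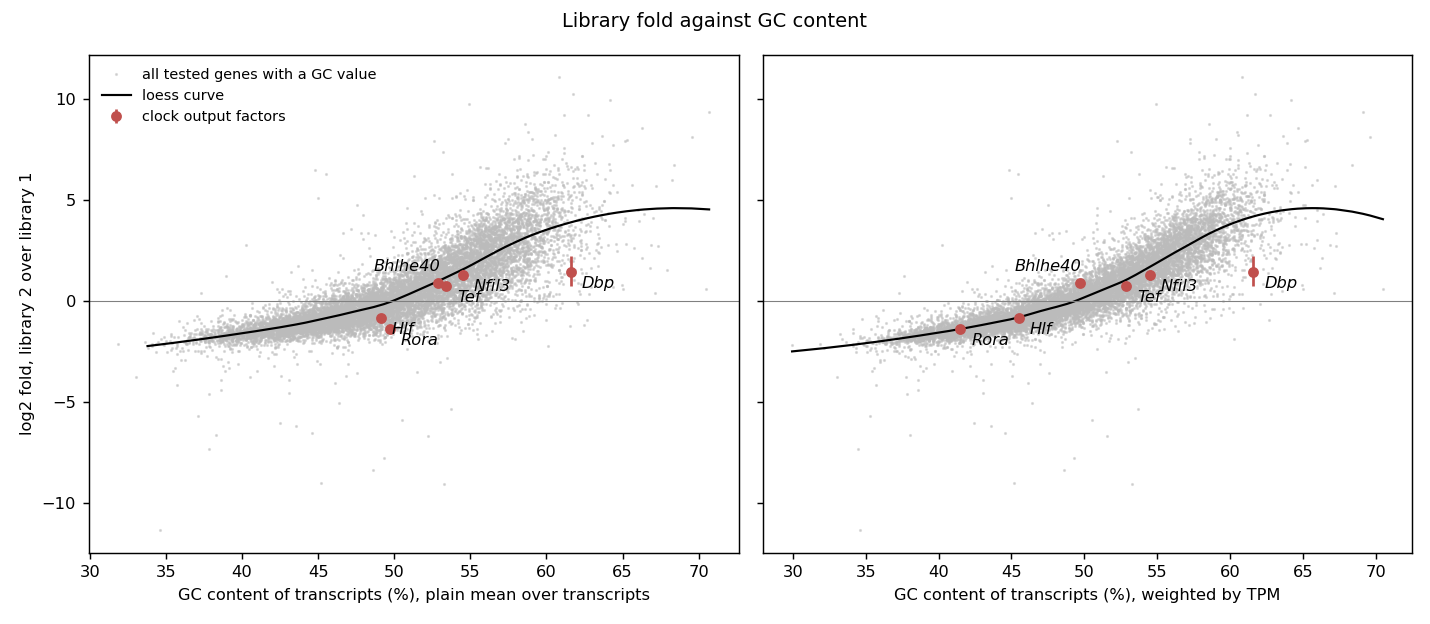
Log2 fold of library 2 over library 1 against GC content in percent, by plain mean over transcripts (left) and weighted by TPM (right); grey points are tested genes with a GC value, the line a loess curve, and red points 6 members with exact binomial 95% intervals. Dbp lies below the curve in both panels, while Rora lies below it on the left and on it on the right.

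Core clock genes, the upstream side of the pathway, were split in the same comparison. Of 15 listed, 14 were tested: 5 were called higher in library 2, 2 lower and 7 not called, with Rorb at 0 counts in both libraries. Over all tested genes the shares were those given above, 32.7% higher and 23.8% lower. The higher ones were Per1 (log2 fold 4.23), Nr1d1 (3.0), Cry2 (1.79), Csnk1e (1.67) and Csnk1d (1.48). The lower ones were Nr1d2 (-1.76) and Clock (-1.26). Arntl (-0.52), Npas2 (0.34), Arntl2 (-0.42), Per2 (0.04), Per3 (0.40), Cry1 (-0.07) and Fbxl21 (-0.17) were not called. After the GC curve none of the 7 calls was left: 0 genes were higher with either GC form, and the lower ones were Npas2 (-2.56) and Per2 (-2.10) with the plain mean and Per2 alone (-1.58) with the weighted GC. Over all tested genes 10.2% were then higher and 10.5% lower with the plain mean, and 7.3% and 7.5% with the weighted GC. The REV-ERB genes, which repress through ROR elements, were called in opposite directions under TMM, but after the curve Nr1d1 was 0.69 with the plain mean and 0.40 with the weighted GC, Nr1d2 -0.84 and -0.44, and neither was called. Nr1d1 read 38.37 TPM in library 2 and 3.08 TPM in library 1, and Nr1d2 read 14.57 TPM and 25.95 TPM.

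The standing of Rora against Nr1d1 differed between the libraries. On the log2(TPM + 0.1) scale Rora minus Nr1d1 was -2.08 in library 2 and 1.92 in library 1. The order of this activator and this repressor gene of ROR elements therefore depended on the library.

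Liver genes known as targets of the PAR bZIP factors were all detected in both libraries. Of the 7, 3 were called higher in library 2, 1 lower and 3 not called, with a median log2 fold of 0.71. That compares with 32.7% higher and 23.8% lower over all tested genes, and after the GC curve, with either GC form, 0 of the 7 were called. Under total-count scaling 4 were higher and 0 lower, where 41.9% of all tested genes were higher and 7.5% lower. As a ratio of deposited TPM the counts were 5 and 0, where the shares over all were 45.9% and 2.5%. Por, which supplies electrons to cytochromes P450, had a log2 fold of 2.95, Alas1, the first enzyme of heme synthesis, 1.39, and Nr1i3, the receptor CAR, 1.28. Cyp7a1, the rate-limiting enzyme of bile acid synthesis, was lower (-1.41; 0.01 after the curve on the plain mean and 0.14 on the weighted GC), with 38.59 TPM in library 2 and 56.26 TPM in library 1. Cyp2a5, an enzyme gene under PAR bZIP control in mouse liver, was the most abundant, with 533.99 TPM in library 2 and 246.68 TPM in library 1, and its log2 fold of 0.71 was not called. Cyp2a4 (0.28) and Cyp2b10 (0.41) were not called either. Cyp2a4 and Cyp2a5 are close paralogs whose estimated counts were not whole numbers, so the division between them is uncertain.

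**Figure D5:**
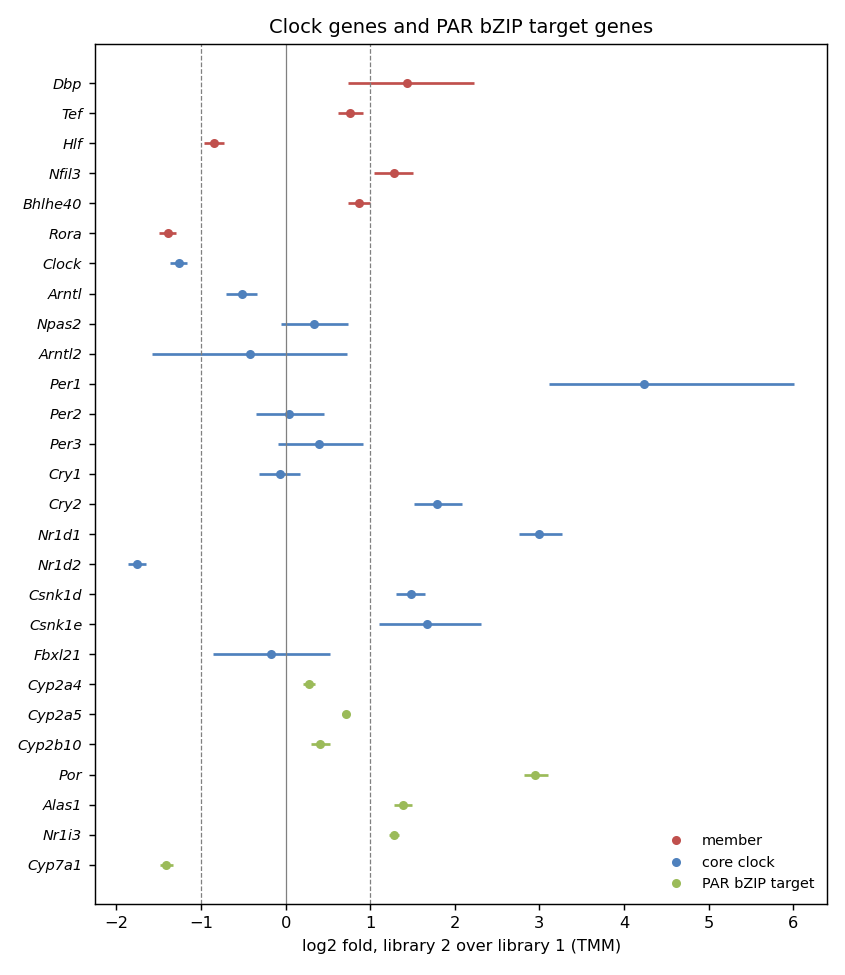
Log2 fold of library 2 over library 1 with the exact binomial 95% interval, for the 6 members tested, 14 core clock genes and 7 PAR bZIP target genes; dashed lines mark a size of 1. Nr1d1 lies at 3.0 and Nr1d2 at -1.76, and the members spread over both sides of 0.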

How the data were processed

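PolyA RNA-seq of 1 mouse liver in 2 technical libraries was analysed. Per the file headers and the deposited notes, reads were placed on mm10 with annotation M4. Neither the aligner and quantification tool nor the use of strand in counting is stated there. The authors deposited gene and transcript tables with estimated counts (expected counts), TPM and FPKM, and the percent of a gene's TPM held by each transcript. FPKM was deposited by the authors and not used. Symbols and spans came from GENCODE M21, and promoter windows from RefSeq on GRCm38.p6.

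Counts were rounded and scaled with TMM in edgeR 4.0.16 (R 4.3.3); folds used a prior count of 0.5, a summed count of at least 20 and exact Clopper-Pearson 95% intervals. Intervals cover counting error only. edgeR's quasi-likelihood test has no residual degrees of freedom here, so no p-value is given. The step was tested on simulated counts, drawn for both libraries from a shared profile with a set of genes changed by known folds. The simulation held no GC trend between the libraries, so it does not cover the trend seen here. GC content came from M21 transcripts within 10% of the deposited length, and the loess curve (span 0.3) was fitted on nuclear genes. The alternatives were total-count, DESeq2 1.42.0 and TPM scaling, no count minimum, no mitochondrial genes and the GC curve. The weighted GC curve was added after the values on the plain mean had been seen.

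The genes named are the 8 members, the core clock and PAR bZIP target lists, the nearest listed gene of each member, overlapping genes and, of the other lists, genes at 0 and the 2 highest by mean TPM. Members and lists were chosen with earlier results of these data known. Some genes of the lists are not reported here and were left out of the list counts. A planned comparison of the members' proteins was not made.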

Additional observations from a re-analysis of the deposited data

How the results depend on the processing

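No paired analysis was possible because there is 1 group, with 2 technical libraries. Members called higher numbered 2 under TMM, 4 under total-count scaling, 4 as a ratio of deposited TPM, and 0 after either GC curve. Where 4 were called, Tef and Bhlhe40 joined Dbp and Nfil3. Members called lower numbered 1 under TMM, 0 under total-count scaling, 0 as a ratio of TPM, 2 after the GC curve on the plain mean (Dbp and Rora) and 1 after the weighted curve (Dbp). DESeq2 size factors, no count minimum and leaving out mitochondrial genes left both counts as they were. Of 42 alternative folds, 34 kept their direction and 8 reversed. Those that kept both their direction and their status as called or not called numbered 27. After the curve on the plain mean the reversed ones were Dbp (-2.46), Tef (-0.39), Nfil3 (-0.30) and Bhlhe40 (-0.12), after the weighted curve Dbp (-2.75), Tef (-0.27) and Nfil3 (-0.42), and as a ratio of TPM Hlf (0.29). Rora was no longer called at -0.81 under total-count scaling, -0.41 as a ratio of TPM and -0.01 after the weighted curve. The weighted curve was chosen after seeing the data, and the cause of the other changes was not tested. Against TMM, total-count scaling moved every log2 fold by 0.58 and the TPM ratio by a median of 0.80. Of all called genes 57.9% were higher under TMM, 84.8% under total-count scaling, 94.9% as a ratio of TPM, 49.2% after the plain curve and 49.3% after the weighted one. Genes called higher and lower were 4166 and 3026 of 12728 tested under TMM (32.7% and 23.8%), 5330 and 954 under total-count scaling (41.9% and 7.5%), 5837 and 314 as a ratio of TPM (45.9% and 2.5%), 1234 and 1274 of 12125 after the plain curve (10.2% and 10.5%), and 889 and 913 of 12128 after the weighted one (7.3% and 7.5%). Calls in the other lists under these settings were computed after seeing the data. With 1 library alone, 7 members were detected in library 2 and 5 in library 1. Members detected in both numbered 5 at 1 TPM, 6 at 0.5 TPM and 5 at 5 TPM. With TPM taken over nuclear protein-coding genes, 6 reached 1 TPM in both. On that scale Dbp in library 1 was at 2.34 TPM, against 0.88 TPM as deposited. Level gaps that changed sign between the libraries taken alone, given for library 2 and then library 1, were Tef minus Hlf (0.62 and -0.53), Hlf minus Nfil3 (-0.53 and 1.33) and Rora minus Nr1d1 (-2.08 and 1.92). With 1 in place of 0.1 added to TPM, the mean gap of Bhlhe40 minus Bhlhe41 fell from 7.44 to 4.42. The mean gaps of Tef, Hlf and Nfil3 minus Dbp fell from 2.91 to 2.38, 2.86 to 2.33 and 2.46 to 1.99. Ciart and Bhlhe41, with 17 and 5 counts, were under the count minimum, and their log2 folds under TMM have wide intervals, -0.28 to 3.49 and -7.91 to 1.05.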

Other observations

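Other rhythmic liver genes and relatives of the members were measured in the same libraries. Of 12 other rhythmic liver genes tested, 2 were called higher in library 2, 2 lower and 8 not called, against 32.7% higher and 23.8% lower over all tested genes. After the GC curve 0 of the 11 with a GC value were higher, and 4 were lower with the plain mean and 3 with the weighted GC. The shares over all tested genes were then 10.2% higher and 10.5% lower with the plain mean, and 7.3% and 7.5% with the weighted GC. The most abundant were Insig2, an inhibitor of sterol regulatory protein processing, with 350.28 TPM in library 2 and 329.73 TPM in library 1, and Gys2, the liver glycogen synthase gene, with 46.44 TPM and 35.04 TPM.

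The C/EBP genes, bZIP factors of hepatocytes, were led by Cebpa, with a mean of 60.5 ± 55.9 TPM (SD, n = 2 libraries; higher in library 2), and Cebpg, with 14.11 TPM in library 2 and 17.85 TPM in library 1. Of the 4 tested, 2 were called higher in library 2, 1 lower and 1 not called, against 32.7% higher and 23.8% lower over all tested genes. After the GC curve Cebpa turned to -2.72 with the plain mean and -2.99 with the weighted GC, and Cebpg to -0.75 and -0.08. Of the 3 with a GC value 0 were then higher and 2 lower, Cebpa and Cebpb, the second named after its values were seen. The shares over all tested genes after the curve are those given above for the rhythmic genes. Among the HES and HEY repressor genes Hes6 read 40.33 TPM in library 2 and 1.56 TPM in library 1, Hes1 read 11.07 TPM and 9.85 TPM, and Helt was at 0 counts in both. Of the 4 tested, 2 were called higher, 0 lower and 2 not called, against the same shares over all tested genes as for the C/EBP genes. After the GC curve 0 were higher and 1 was lower, Hes1, at -3.94 with the plain mean and -1.29 with the weighted GC, while Hes6 was at -0.29 and -0.10 and not called.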
